A study of Homo sapiens with 9 samples.

Results

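The genes described here encode the core proteins of the spliceosomal snRNPs, the SF3A and SF3B complexes, the U2AF factors and the LSM family. They were taken from a genome-wide Brunello knockout screen by name, as every gene whose symbol begins with SNRP, SNRNP, SF3A, SF3B, U2AF or LSM followed by a digit, together with PHF5A. This gave 45 of the 19114 genes that the library targets, with 4 guide RNAs each and 180 guides in all. The screen was run in HEL, a JAK2-mutated line of human erythroleukemia cells, made to express Cas9 and infected with the pooled lentiviral library. Guide DNA was sequenced from 4 libraries after 12 days with 200 nM ruxolitinib (RUX, a JAK inhibitor), 4 libraries after 12 days with DMSO, the vehicle, and 1 library at day 0, and all of these cells carried Cas9 and the guide library. The labels number the RUX and DMSO libraries from 1 to 4, and the methods describe each treatment as run in 4 replicates, without saying when the cultures were separated. The p-values below measure only the spread between these libraries, which may be technical. The screen used 1 cell line, and every day 12 value is set against the same single day 0 library.

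Splicing is carried out by snRNPs, particles in which a small nuclear RNA is held in a ring of 7 Sm proteins (SNRPB, SNRPD1, SNRPD2, SNRPD3, SNRPE, SNRPF and SNRPG) and joined by proteins of its own. The U1 snRNP recognises the start of an intron, U2AF its end, and the U2 snRNP with SF3A and SF3B the branch site, after which the U4/U6.U5 tri-snRNP joins and the reaction starts. The U6 RNA carries a related ring, LSM2 to LSM8, in which LSM8 keeps the ring nuclear. With LSM1 in the place of LSM8 the ring works in cytoplasmic mRNA decay. A second, minor spliceosome removes a small class of introns and uses the U11 and U12 snRNPs, and the U7 snRNP, with LSM10 and LSM11, processes histone mRNA. In a pooled screen a guide's share of the reads falls when the cells that carry it are lost or divide more slowly than the others.

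A gene's score in a library is the mean over its guides of the natural log of the guide's scaled value against day 0, so that −0.5 stands for about 60.7% of the day 0 level left and 0 for the level of the non-targeting control guides. Reads on guides numbered 19631338 to 24526993 in the RUX libraries, 21783913 to 26611323 in the DMSO libraries and 21983632 at day 0, where the median guide had 235 reads. The spread of the control guides was wider in DMSO replicate 3 (SD 0.46) than in the other day 12 libraries (SD 0.26 to 0.30). Of the members' 180 guides, 178 were scored. The other 2, one to LSM1 (sg_35905) and one to SNRPA1 (sg_17868), had 0 reads in every library including day 0, which allows up to 3 reads a library, so both genes rest on 3 guides. All 45 genes were scored, among 19112 in the whole screen.

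Guides against these genes lost ground in both conditions. They held 0.176% to 0.183% of the reads in the RUX libraries and 0.178% to 0.183% in the DMSO libraries, against 0.216% at day 0 (95% Wilson interval 0.214% to 0.218%, counting error only). Under RUX, 13 of the 45 genes (28.9%) had a score below −0.5, where 4.65% of all scored genes did. Under DMSO 14 of them (31.1%) did, where 4.33% of all scored genes did. The median score of the 45 genes was −0.34 under RUX and −0.36 under DMSO, where the whole screen had medians of −0.095 (RUX) and −0.085 (DMSO). Scores were negative for 42 of the 45 under RUX (71.5% of all genes) and for 43 under DMSO (68.5% of all genes). With limma's adjusted p over all genes, 3 of the 45 were lower than at day 0 under RUX (SNRPD3, SF3B5 and PHF5A, background 0.508%) and 2 under DMSO (SNRPD3 and SF3B5, background 0.351%). A score below −1 was reached by these 3 genes under RUX (background 0.685%) and by these 2 under DMSO (background 0.555%). On reads summed per gene, edgeR called SNRPD3 and PHF5A lower under RUX (background 0.942%) and SNRPD3 under DMSO (background 0.539%), and DESeq2 called SNRPD3, PHF5A and SNRPE under RUX (background 1.21%) and SNRPD3 under DMSO (background 0.853%). At an unadjusted p under 0.05 limma had 19 of them lower under RUX (background 8.25%) and 20 under DMSO (background 7.75%). Both comparisons use the same day 0 library, so the agreement of their values is not independent.

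**Figure D1:**
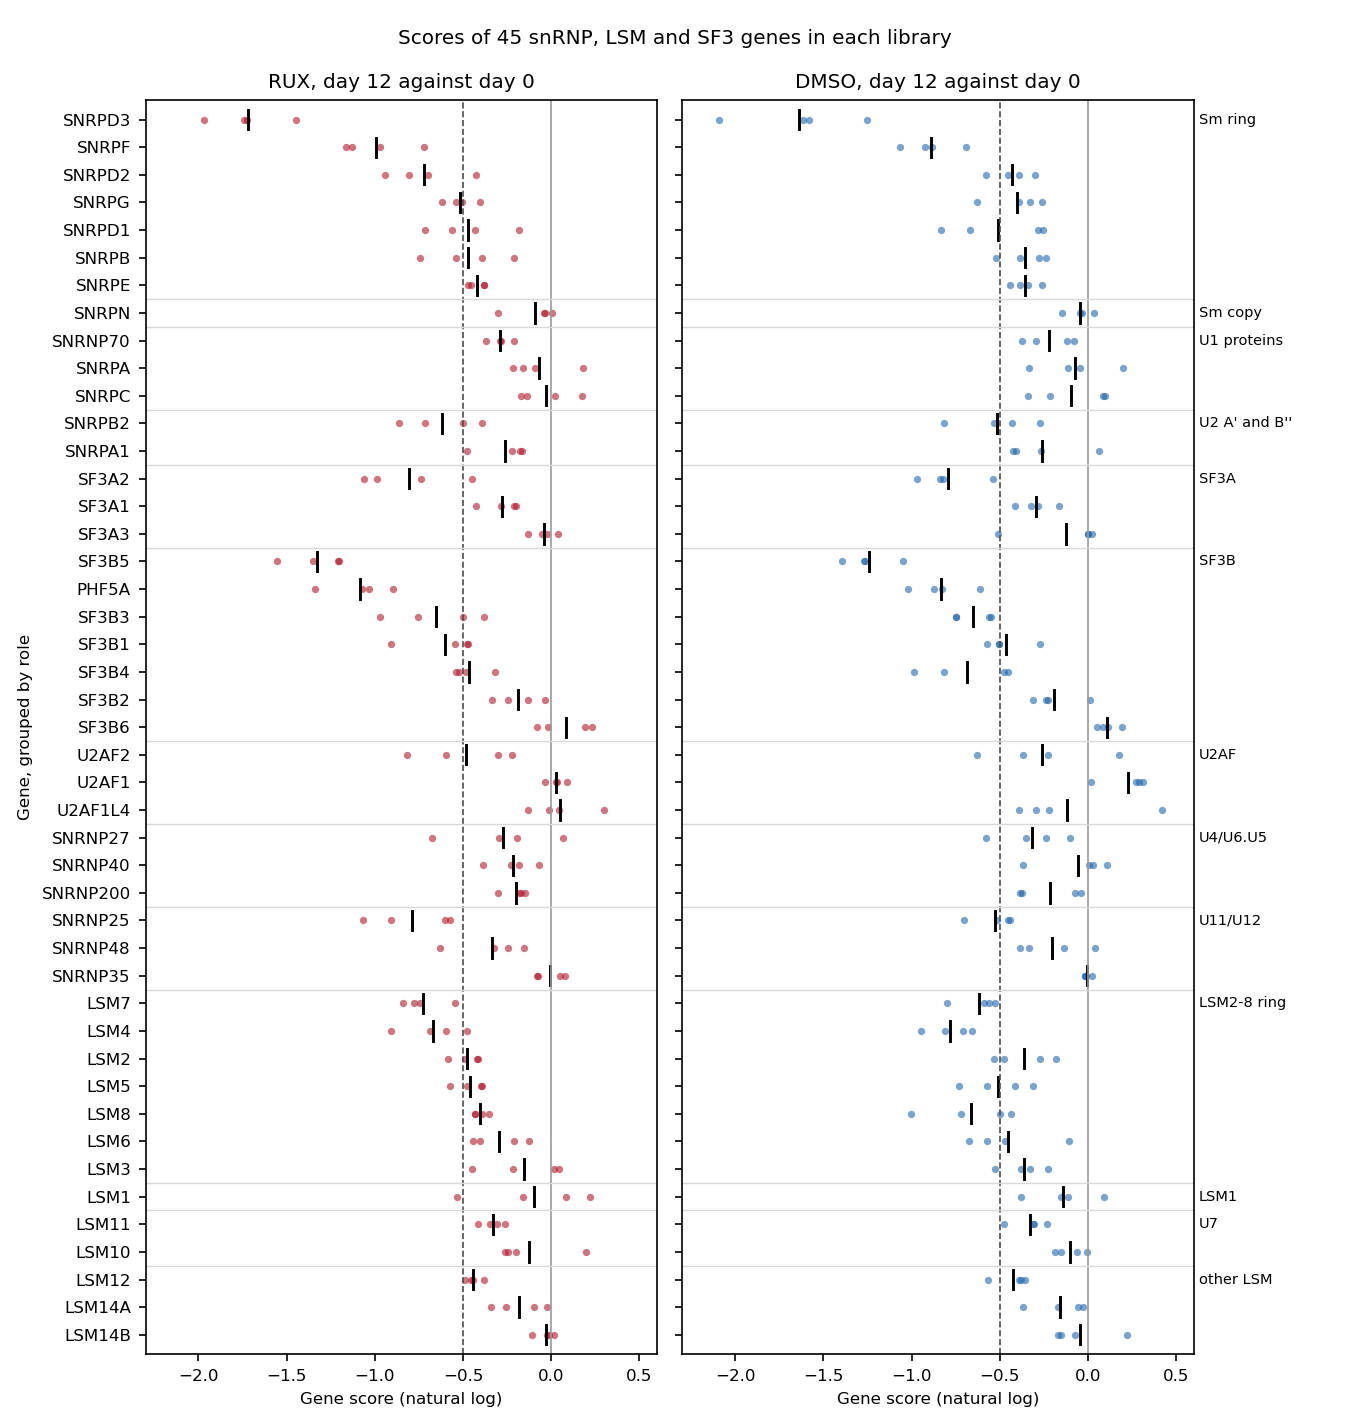
Score of each of the 45 genes in each library (natural log, day 12 against day 0), with RUX on the left and DMSO on the right, genes grouped by role and ordered within a role by the RUX mean. Dots are the 4 libraries, black bars their mean, and the dashed line marks −0.5. SNRPD3, SF3B5 and PHF5A lie farthest to the left under RUX, while the U1, U2AF and U4/U6.U5 genes all have means above −0.5 in both conditions.

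The Sm ring held the lowest gene of the family. SNRPD3 (chr22:24555958-24582052, GRCh38, plus strand, 3 coding exons) scored −1.73, −1.45, −1.97 and −1.74 in the RUX libraries and −1.58, −2.09, −1.62 and −1.25 in the DMSO libraries. No library was above −1.25. On the scale of the score, a mean of logs over guides, 17.9% of the day 0 level was left under RUX and 19.5% under DMSO. The score was −1.72 ± 0.21 under RUX (SD, n = 4; limma adjusted p = 0.010) and −1.64 ± 0.35 under DMSO (SD, n = 4; limma adjusted p = 0.017). It was the only member with all 4 guides below −0.5 in each condition. The guide sg_17892 was read 12, 18, 4 and 3 times under RUX and 23, 22, 31 and 30 times under DMSO, against 243 times at day 0, and sg_17890 1, 5, 1 and 10 times under RUX and 1, 1, 0 and 23 times under DMSO, against 80 times at day 0. The other guides of the gene kept more reads, sg_17889 with 62 to 189 under RUX and 78 to 173 under DMSO against 216 at day 0. When guides with a day 0 value under 100 were left out, which drops sg_17890, the score was −1.51 under RUX and −1.38 under DMSO, and the limma adjusted p was 0.052 under RUX and 0.086 under DMSO.

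All 7 Sm genes had negative scores in all 8 libraries, with medians over the ring of −0.52 under RUX and −0.43 under DMSO. Below −0.5 were 4 of 7 under RUX and 3 of 7 under DMSO. SNRPF scored −0.72, −1.13, −1.16 and −0.97 under RUX and −1.07, −0.89, −0.69 and −0.92 under DMSO. Its limma adjusted p was 0.053 under RUX, just short of the threshold, and 0.093 under DMSO. Without RUX replicate 1, its highest RUX library, the limma adjusted p under RUX was 0.043. SNRPD2 scored −0.72 ± 0.22 under RUX and −0.43 ± 0.12 under DMSO (SD, n = 4 each), and that mean came from 1 guide of 4. This guide, sg_17888, was read 30, 23, 4 and 2 times under RUX and 28, 22, 28 and 36 times under DMSO, against 150 times at day 0, while the other 3 SNRPD2 guides scored between −0.28 and −0.06 under RUX and between −0.13 and 0.07 under DMSO. SNRPD1, SNRPB, SNRPE and SNRPG were close together, between −0.52 and −0.42 under RUX and between −0.51 and −0.36 under DMSO, and none of them passed limma's test. SNRPN, a copy of SNRPB best known from brain, scored −0.04, 0.0018, −0.30 and −0.04 under RUX and −0.04, −0.15, 0.04 and −0.03 under DMSO, and had no guide below −0.5 in either condition. The sign of its DMSO score turned with the values as deposited (0.02).

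SF3B, the part of the U2 snRNP that grips the branch site, was another low group. Its median was −0.60 under RUX and −0.65 under DMSO, with 4 of 7 genes below −0.5 in each condition. SF3B5 (chr6:144094884-144095573, GRCh38, minus strand, 1 coding exon), a small structural subunit, scored −1.56, −1.20, −1.21 and −1.35 under RUX and −1.05, −1.27, −1.27 and −1.39 under DMSO. The libraries of the 2 conditions overlapped and all 8 lay at or below −1.05. Its mean was −1.33 ± 0.17 under RUX (SD, n = 4; limma adjusted p = 0.012) and −1.24 ± 0.14 under DMSO (SD, n = 4; limma adjusted p = 0.024). The guide sg_52098 was almost lost, with 0, 1, 0 and 2 reads under RUX and 6, 6, 0 and 1 under DMSO against 63 at day 0. When guides with a day 0 value under 100 were left out, which drops sg_52098, SF3B5 stayed below −0.5 in both conditions. It was then not called by limma in either. The most abundant guide, sg_52096, was the least depleted, with a mean score of −0.44 under RUX and 0.01 under DMSO and 526, 633, 364 and 346 reads under RUX and 833, 521, 1152 and 598 under DMSO against 656 at day 0. Tools that sum the reads of a gene give that guide the most weight, and edgeR gave −0.68 under RUX (adjusted p = 0.070) and −0.33 under DMSO (adjusted p = 0.77) on the same log scale. Without DMSO replicate 3 the DMSO score was −1.24 with a limma adjusted p of 0.054.

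PHF5A (chr22:41459717-41468692, GRCh38, minus strand, 4 coding exons), which sits beside SF3B1 at the branch site pocket, scored −1.34, −0.90, −1.03 and −1.07 under RUX and −0.87, −1.02, −0.61 and −0.83 under DMSO. Each RUX library lay at or below −0.90, and 3 of the DMSO libraries, replicates 1, 3 and 4, lay above every RUX library. The mean was −1.09 ± 0.19 under RUX (SD, n = 4; limma adjusted p = 0.034) and −0.83 ± 0.17 under DMSO (SD, n = 4; limma adjusted p = 0.13). The RUX call did not stand without RUX replicate 1 (adjusted p = 0.068), replicate 3 (0.060) or replicate 4 (0.056), while the score stayed between −1.10 and −1.0002. It was also lost with libraries scaled to their totals (−1.02, adjusted p = 0.068) and with the values as deposited (−1.01, adjusted p = 0.074). Of its guides 3 fell alike, to scores between −1.66 and −1.29 under RUX and between −1.22 and −1.05 under DMSO. The reads of these 3 guides summed with those of sg_54275 gave −0.65 under RUX with edgeR (adjusted p = 0.038). That guide, sg_54275, was read 421, 713, 562 and 587 times under RUX and 523, 527, 627 and 660 times under DMSO, against 482 times at day 0.

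**Figure D2:**
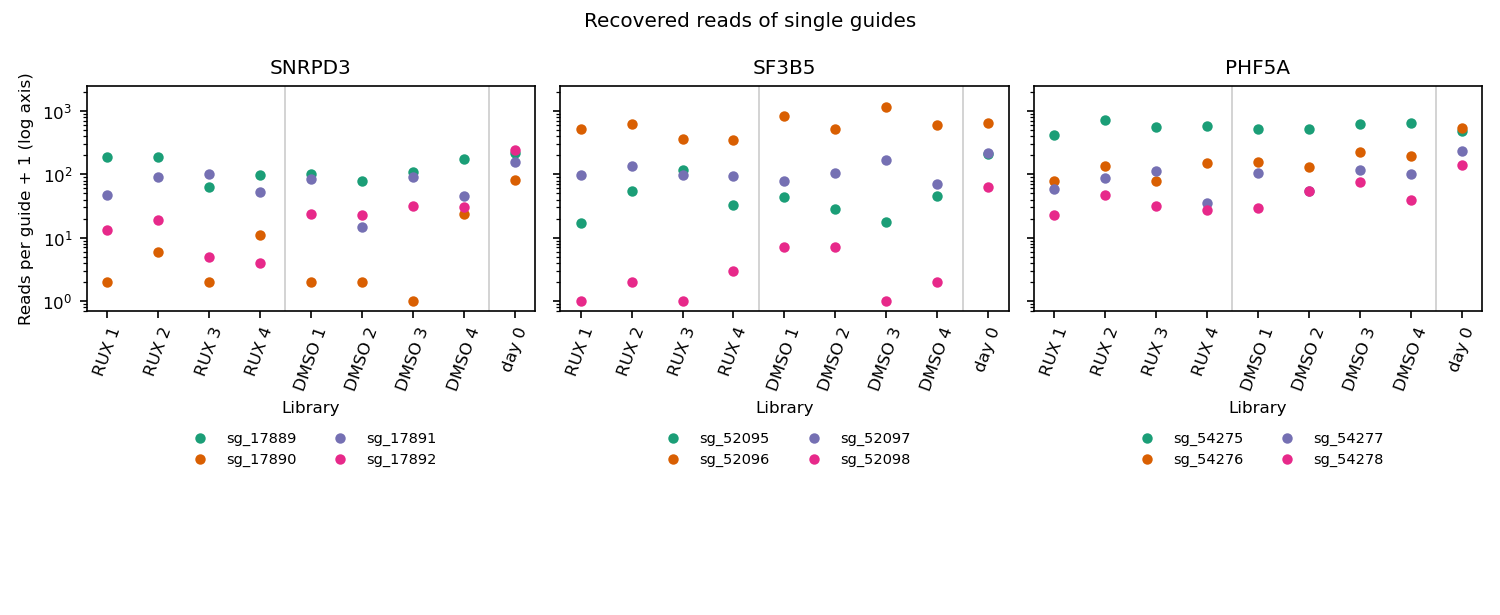
Reads per guide plus 1 (log axis) of the 4 guides of SNRPD3, SF3B5 and PHF5A in the 4 RUX, 4 DMSO and 1 day 0 libraries, as recovered from the deposited values and not scaled for library size. All 4 SNRPD3 guides were read less at day 12 than at day 0, while sg_54275 of PHF5A was read 421 to 713 times against 482 at day 0, and sg_52096 of SF3B5 346 to 633 times under RUX and 521 to 1152 times under DMSO against 656 at day 0.

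The large SF3B subunits were lower by a smaller amount. SF3B3, a scaffold of repeated propeller folds, scored −0.97, −0.50, −0.75 and −0.38 under RUX and −0.75, −0.56, −0.75 and −0.55 under DMSO, with 3 of 4 guides below −0.5 in each condition. SF3B1, which holds the branch site adenosine and is mutated in blood cancers, scored −0.60 ± 0.21 under RUX and −0.46 ± 0.13 under DMSO (SD, n = 4 each), and without RUX replicate 1, its lowest library, the RUX score was −0.50. A single SF3B1 guide was below −0.5 in each condition, at −1.31 under RUX and −1.25 under DMSO. SF3B4 scored −0.54, −0.52, −0.32 and −0.48 under RUX and −0.47, −0.99, −0.46 and −0.82 under DMSO. It lies at chr1:149923317-149927803 (GRCh38), where the 20 nearest scored genes had the lowest median of any member's neighbours, −0.30 under RUX and −0.31 under DMSO, and the part of copy number in its score was not tested. SF3B2 was at −0.19 in both conditions, and SF3B6, which touches the branch site adenosine, was at 0.08 under RUX and 0.11 under DMSO, with no guide below −0.5.

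The other proteins of U2 and its recruitment were mixed. SF3A2, an SF3A subunit that joins SF3B to U2, scored −0.81 ± 0.28 under RUX and −0.79 ± 0.18 under DMSO (SD, n = 4 each), led by the guide sg_21363 with 21, 15, 25 and 60 reads under RUX and 50, 82, 25 and 39 under DMSO against 286 at day 0. SF3A1 was at −0.28 under RUX and −0.29 under DMSO, and SF3A3 at −0.04 under RUX and −0.12 under DMSO. SNRPB2, the U2 B″ protein, scored −0.62 under RUX and −0.51 under DMSO, and without DMSO replicate 3 the DMSO score was −0.41. Its partner SNRPA1, the U2 A′ protein, was at −0.26 in both conditions over 3 guides. U2AF2, which binds the pyrimidine tract before the end of the intron, scored −0.48 ± 0.28 under RUX and −0.26 ± 0.34 under DMSO (SD, n = 4 each). Its 2 low guides were also its thinnest, with 65 and 64 reads at day 0, and over its guides with a day 0 value of at least 100 the score was 0.01 under RUX and 0.03 under DMSO. U2AF1, which reads the last bases of the intron, was at 0.03 ± 0.05 under RUX and 0.22 ± 0.14 under DMSO (SD, n = 4 each), with no guide below −0.5. Its paralog U2AF1L4 scored 0.30, −0.01, 0.05 and −0.13 under RUX and 0.42, −0.29, −0.22 and −0.39 under DMSO, with replicate 1 the highest in both conditions.

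The members particular to U1 and to the tri-snRNP had mean scores above −0.5 in both conditions. In single libraries, SNRNP27 was below it, at −0.68 in RUX replicate 2 and −0.58 in DMSO replicate 2. SNRNP70, SNRPA and SNRPC, the 3 U1 proteins, scored between −0.29 and −0.03 under RUX and between −0.22 and −0.07 under DMSO. SNRNP200, the helicase that unwinds U4 from U6, SNRNP40 and SNRNP27 scored between −0.28 and −0.20 under RUX and between −0.32 and −0.05 under DMSO. SNRNP200 had 1 guide of 4 below −0.5 in each condition. None of these 6 genes passed limma's test, which does not show that the cells do without them.

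The LSM2 to LSM8 ring of U6 was negative for all 7 genes in both conditions, with medians of −0.46 under RUX and −0.51 under DMSO, 2 genes below −0.5 under RUX and 4 under DMSO. None of the 7 passed limma's adjusted threshold, though 4 under RUX (background 8.25%) and 5 under DMSO (background 7.75%) had an unadjusted p under 0.05. LSM7 scored −0.74, −0.78, −0.84 and −0.54 under RUX and −0.59, −0.56, −0.80 and −0.52 under DMSO, below −0.5 in every library. LSM4 scored −0.67 ± 0.18 under RUX and −0.78 ± 0.13 under DMSO (SD, n = 4 each) and rested on the guide sg_33759, which had 7, 31, 18 and 0 reads under RUX and 1, 9, 2 and 1 under DMSO against 138 at day 0. Its other 3 guides scored between −0.34 and 0.30 under RUX and between −0.24 and 0.24 under DMSO. LSM8 scored −0.35, −0.43, −0.39 and −0.43 under RUX and −0.43, −0.72, −1.001 and −0.50 under DMSO, and again 1 guide, sg_39303, was far below the others, at −1.29 under RUX and −1.46 under DMSO. LSM5 had the same shape, with sg_33435 at −1.50 under RUX and −1.51 under DMSO and no other guide below −0.5 in either condition. LSM3 scored −0.22, 0.04, −0.45 and 0.02 under RUX and −0.53, −0.38, −0.23 and −0.33 under DMSO.

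LSM1, which replaces LSM8 in the cytoplasmic ring, scored −0.16, 0.22, −0.54 and 0.08 under RUX and 0.09, −0.15, −0.11 and −0.38 under DMSO. Its libraries lay on both sides of 0 in each condition, its 3 scored guides were all above −0.5, and the difference between LSM1 and LSM8 was not tested. LSM14A and LSM14B, cytoplasmic proteins of mRNA storage and decay, scored −0.18 ± 0.14 and −0.03 ± 0.05 under RUX and −0.16 ± 0.15 and −0.04 ± 0.18 under DMSO (SD, n = 4 each). LSM14B changed sign under RUX with libraries scaled to their totals (0.04) and with the values as deposited (0.05 under RUX and 0.02 under DMSO). LSM12 scored −0.44 ± 0.05 under RUX and −0.42 ± 0.10 under DMSO (SD, n = 4 each), with 2 guides below −0.5 in each condition. Of the U7 proteins, LSM10 was at −0.13 under RUX and −0.10 under DMSO and LSM11 at −0.33 in both. The LSM11 value was that of 1 guide, sg_60252, with 140, 203, 130 and 156 reads under RUX and 134, 129, 156 and 207 under DMSO against 640 at day 0. Without it the score of LSM11 was 0.04 under RUX and 0.06 under DMSO.

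Of the 3 members particular to the minor spliceosome's U11/U12 particle, 1 was below −0.5. The particle holds further proteins, some of them outside this family. SNRNP25 (chr16:53828-57669, GRCh38, plus strand) scored −0.60, −0.57, −0.91 and −1.07 under RUX and −0.45, −0.44, −0.52 and −0.70 under DMSO. Its RUX score was −0.79 ± 0.24 (SD, n = 4; limma adjusted p = 0.12) with 3 guides below −0.5, and its DMSO score was −0.53 ± 0.12 (SD, n = 4; limma adjusted p = 0.49) with 2 guides below −0.5. Without DMSO replicate 4 the DMSO score was −0.47. SNRNP48 was at −0.34 under RUX and −0.20 under DMSO, and SNRNP35 at −0.0073 under RUX and −0.0040 under DMSO.

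The guides of a gene differed widely, which bears on how firmly a low mean can be read. Of the 178 scored guides 56 (31.5%) were below −0.5 under RUX and also 56 under DMSO, against 11.8% of all targeting guides under RUX and 11.9% under DMSO. Among 990 control guides 8 (0.808%) were below −0.5 under RUX and 30 (3.03%) under DMSO. A score below −1 was reached by 25 guides of 19 genes under RUX and by 24 guides of 18 genes under DMSO, and the lowest control guide was at −0.98 under RUX and −1.27 under DMSO. In 6 genes under RUX (LSM11, LSM4, LSM5, LSM8, SF3B1 and SNRPD2) and 8 under DMSO (LSM11, LSM2, LSM4, LSM5, LSM8, SF3B1, SF3B2 and SNRPD2) a single guide was below −1 and all others of that gene were above −0.5. At least 2 guides below −1 were found in 5 genes under RUX (PHF5A, SF3B5, SNRNP25, SNRPD3 and SNRPF) and in 4 under DMSO (PHF5A, SF3B5, SNRPD3 and SNRPF). No guide was below −0.5 in 13 genes under RUX and 10 under DMSO. The shares over the whole screen of guides below −1, and of genes with these numbers of low guides, were not counted. These counts therefore describe the members only. Guides of 1 gene share their target and are not replicates.

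**Figure D3:**
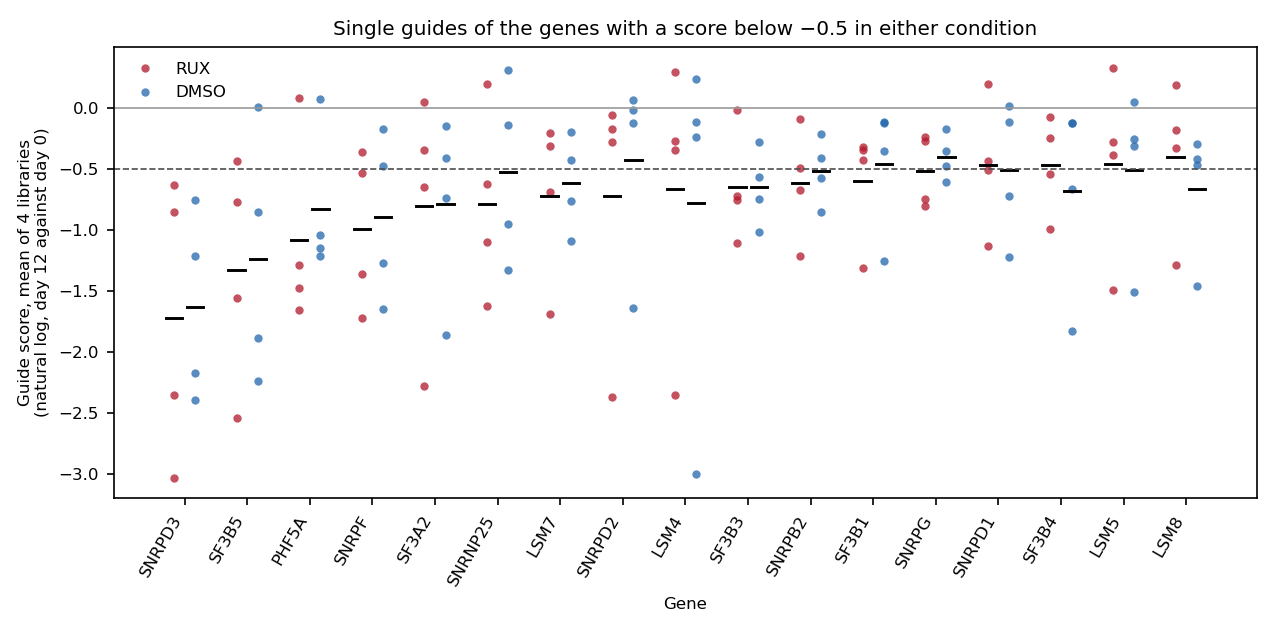
Score of each scored guide (dots, mean of 4 libraries, natural log) and of the gene (black bar, mean over guides) for the 17 genes with a score below −0.5 in either condition, RUX in red left of DMSO in blue. The dashed line marks −0.5. All 4 SNRPD3 guides are below it, whereas LSM4 and SNRPD2 each have 1 guide near or below −1.65 and the others above −0.5.

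RUX was compared with DMSO to ask whether loss of these proteins weighed differently on cells under JAK inhibition. With limma 0 of the 45 genes differed between RUX and DMSO after adjustment (background 0%), and 2 of them, SNRPD2 and U2AF1, had an unadjusted p under 0.05 (background 8.92%). The count tools edgeR and DESeq2 also called 0 of the 45, where they called 0.0262% and 0.272% of all genes. Differences in score, RUX minus DMSO, ran from −0.29 to 0.26, with a median of −0.018 for the 45 genes and −0.011 for all genes, and 27 of the 45 were negative (53.5% of all genes). The lowest were SNRPD2 at −0.29 (95% interval −0.56 to −0.02), SNRNP25 at −0.26 (−0.54 to 0.02) and PHF5A at −0.25 (−0.55 to 0.05). The highest were LSM8 at 0.26 (−0.01 to 0.53), SF3B4 at 0.22 (−0.06 to 0.50) and LSM3 at 0.21 (−0.04 to 0.46). For U2AF1 the difference was −0.20 (−0.39 to −0.0036). For SNRPD3 it was −0.08 (−0.47 to 0.30) and for SF3B5 −0.09 (−0.39 to 0.22), so that differences from −0.39 to 0.22 lie within the intervals of both.

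The 4 RUX and 4 DMSO libraries did not overlap for 1 gene, LSM8, which was higher under RUX (background 1.96% higher, 2.98% lower and 4.94% in either direction). The lowest RUX library of LSM8 was at −0.433 and the highest DMSO library at −0.435, so the gap was far smaller than the spread within DMSO. With 1 library left out the number of genes that did not overlap ran from 1 to 5, and 5 was reached without DMSO replicate 1, where SNRNP40 and SNRPG were lower and LSM6, LSM8 and U2AF1L4 higher under RUX (background 7.91%). It was 3 without RUX replicate 2 (background 8.86%) and 3 without DMSO replicate 2 (background 11.1%), and 2 without RUX replicate 1 (background 8.52%), RUX replicate 3 (background 7.58%) or DMSO replicate 4 (background 8.37%). Within the Sm ring 6 of 7 differences were negative, with a median of −0.10, and within the LSM2 to LSM8 ring 2 of 7 were, with a median of 0.11. Neither set of differences was tested as a group.

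**Figure D4:**
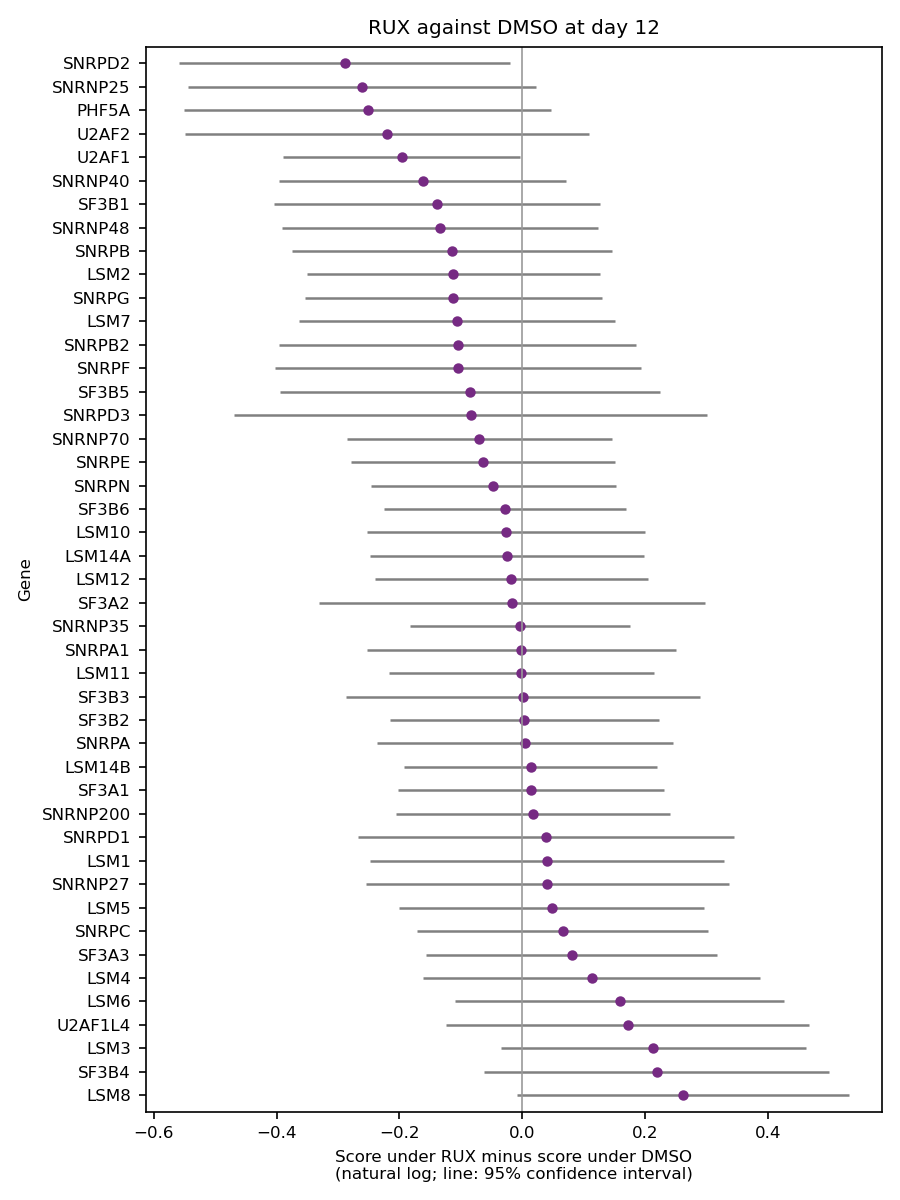
Difference in score, RUX minus DMSO (points, natural log), with its 95% confidence interval from limma (lines) for the 45 genes, lowest at the top. Points run from −0.29 (SNRPD2) to 0.26 (LSM8), and only the intervals of SNRPD2 and U2AF1 lie below 0.

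Several of these genes have coding sites with perfect copies elsewhere in the reference genome. A guide could cut at such a copy as well where the cells carry it. The copies were found by sequence alone. Whether each is a processed copy, exists only in the assembly, or is present in HEL cells was not checked, for U2AF1 as for the others. In the coding exons of the 45 genes (GENCODE 44 on GRCh38), every stretch of 20 bases followed by NGG was looked up in the rest of the genome, and the share with a perfect copy ran from 0% for SNRPD3, SF3B5, SF3B1, SF3B3, LSM7, LSM8 and SNRNP25, among others, to 97.5% for U2AF1 (78 of 80 sites) and 100% for SNRPG (14 of 14). Which of these sites the library's guides use is not known here. At least 50% of sites had a copy in 8 genes (SNRPG, U2AF1, LSM12, SNRPA1, SNRPD1, SF3A3, SNRPE and LSM3). Of these, 1 was below −0.5 under RUX (SNRPG) and 1 under DMSO (SNRPD1), and their median was −0.34 under RUX and −0.36 under DMSO. Among the other 37 genes, 12 were below −0.5 under RUX and 13 under DMSO, with medians of −0.34 under RUX and −0.33 under DMSO. PHF5A had copies of 38.7% of its sites and SNRPF of 46.7%. The part that cuts in such copies have in these scores was not tested.

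**Figure D5:**
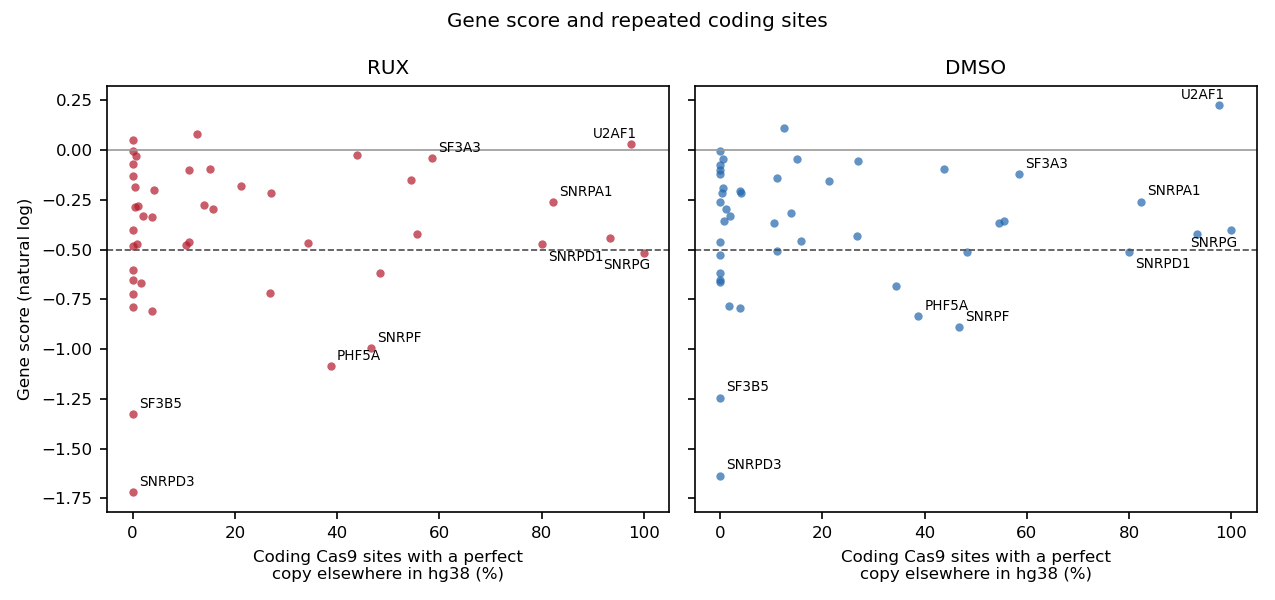
Gene score (vertical axis, natural log) against the percentage of coding Cas9 sites with a perfect copy elsewhere in the reference genome (horizontal axis). The 45 genes are shown under RUX on the left and DMSO on the right. The dashed line marks −0.5. SNRPD3 and SF3B5, the lowest genes, have 0% of sites copied, and U2AF1, with 97.5%, is above 0 in both conditions.

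Proteins that work with these genes were counted from fixed lists. Over all scored genes, 4.65% were below −0.5 under RUX and 4.33% under DMSO. Those called lower by limma's adjusted p were 0.508% under RUX and 0.351% under DMSO. Of 13 factors that assemble Sm rings on snRNA, 4 were below −0.5 under RUX and 5 under DMSO, and 1 passed limma's test in each condition. This was WDR77, the partner of the methyltransferase PRMT5 that modifies Sm proteins, at −1.28 ± 0.24 under RUX (SD, n = 4; limma adjusted p = 0.031) and −1.55 ± 0.22 under DMSO (SD, n = 4; limma adjusted p = 0.012). Its call under RUX was lost without RUX replicate 3 (−1.27, adjusted p = 0.063) and with libraries scaled to their totals (−1.21, adjusted p = 0.067). PRMT5 itself was at −0.65 under RUX and −0.82 under DMSO, and CLNS1A, the chaperone that first holds Sm proteins, at −0.98 under RUX and −1.02 under DMSO. Of 16 scored tri-snRNP and catalytic core genes, 5 were below −0.5 under RUX and 6 under DMSO, and 1 passed limma's test in each. This was PRPF8, the protein around the catalytic centre, at −1.81 under RUX (limma adjusted p = 0.0088) and −1.93 under DMSO (limma adjusted p = 0.0071). Of 10 branch site partners 1 (CHERP, −0.63) was below −0.5 under RUX and 0 under DMSO, and of 8 scored minor spliceosome genes 2 were under RUX (ARMC7, −0.72, and ZCRB1, −0.67) and 1 under DMSO (ARMC7, −0.65). None of the 8 mRNA decay partners of LSM1 was below −0.5 in either condition, with medians of −0.23 under RUX and −0.14 under DMSO.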

How the data were processed

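The authors counted reads per guide RNA with MAGeCK and scaled each library before they deposited the table, which makes the unit a signal for each guide. In every library the deposited signal is whole reads times 1 factor (100% of values within 0.001 of a whole number), and the reads were recovered from it. For day 0 and RUX replicate 1 the factor is so near to 1 that an automated check did not accept the recovery. On these reads, summed per gene, edgeR called 180 genes lower under RUX and 103 under DMSO. The beta scores of the study, with their copy number correction, were not computed here.

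Libraries were brought to 1 scale by the non-targeting guides (median ratio). Only guides with a day 0 value of 30 or more were used, and only genes with 2 or more such guides. A gene's score was the mean over guides of ln((value + 5)/(day 0 value + 5)), and −0.5 leaves 60.7%. The scores of 19112 genes entered limma 3.58.1 in R 4.3.3, with 1 mean per condition, no block and a trend of the variance over the mean score. The fit lends the lone day 0 library the spread of the day 12 libraries. Benjamini-Hochberg adjustment ran over all genes, with a threshold of 0.05. Intervals are 95% intervals from the same fit. edgeR 4.0.16 and DESeq2 1.42.0 were alternatives. Cas9 sites were counted on GRCh38 with GENCODE 44.

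The members, lists and thresholds were chosen with earlier results of these data known. The rule for naming gives full values to members that limma calls, members below −0.5 with at least 3 guides there, the 3 largest differences each way, and SNRPN, U2AF1L4, LSM1, LSM8, LSM14A and LSM14B. Other members and guides named were chosen after their values were seen. Other alternatives were library totals, values as deposited, pseudocounts of 1 and 20, other day 0 minimums (none and 100), the median over guides, the farthest guide left out, the median of 20 neighbouring genes subtracted, no trend, a replicate block, each library left out, and a score below −1. A trend over the mean ln value was added after the data were seen.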

Additional observations from a re-analysis of the deposited data

Results flagged for a closer look

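SNRPN in RUX replicate 3 had a score of −0.30, apart from the other 3 RUX libraries, which lay between −0.04 and 0.0018. Its gap to them was large for 4 values by Dixon's criterion. Named genes were examined in 30 groups of 4 libraries, in which chance would give about 1.5 such cases, and this was the only one found.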

How the results depend on the processing

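Below −0.5 were 13 genes under RUX and 14 under DMSO, and these counts stayed within 1.5 times of that under the alternatives except a score below −1 (3 under RUX and 2 under DMSO) and, under DMSO, edgeR and DESeq2 (7 each) and the farthest guide left out (9). Leaving out 1 library gave 12 to 15 in each condition. With 1 library left out SF3B1 (−0.50 without RUX replicate 1) and SNRPG (−0.48 without RUX replicate 2) were no longer below −0.5 under RUX, and under DMSO LSM5 (−0.43 without DMSO replicate 1, −0.49 without replicate 3), SNRPD1 (−0.46 without replicate 1, −0.40 without replicate 4), SNRPB2 (−0.41 without replicate 3) and SNRNP25 (−0.47 without replicate 4) were not.

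The calls by limma depended on the setting. Under RUX, where 3 genes were called, 0 were called with a day 0 minimum of 100, the median over guides, a pseudocount of 1 or the farthest guide left out, 1 with neighbouring genes subtracted, 6 with a pseudocount of 20, 7 without the variance trend and 7 with the trend over the mean ln value. Under DMSO, where 2 were called, the same settings gave 0, 0, 0 and 0, then 1, 4, 5 and 4, and edgeR and DESeq2 gave 1 each. Leaving out 1 library gave 2 to 3 calls under RUX and 1 to 2 under DMSO. SNRPD3 was called in both conditions by edgeR and DESeq2, with neighbouring genes subtracted and with any 1 library left out. The cause of the other changes was not tested.

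The labels do not say that the replicate numbers pair RUX and DMSO libraries. Once each gene's mean score in a condition was subtracted, correlations between same-numbered RUX and DMSO libraries ran from −0.13 to 0.03. Those between differently numbered libraries ran from −0.11 to 0.13. With the replicate block 2 genes were called under RUX and 1 under DMSO, and the adjusted p was 0.068 for PHF5A under RUX and 0.068 for SF3B5 under DMSO.

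Between RUX and DMSO 0 genes were called under any alternative run. The number without overlap, 1, was 2 with the median over guides and with neighbouring genes subtracted, 0 with a pseudocount of 20, and 1 to 5 with 1 library left out.

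Signs changed only for values that had passed no test. With edgeR and with DESeq2, LSM1 (0.052), LSM14B (0.0015), LSM3 (0.0029) and U2AF1L4 (−0.048) turned under RUX, LSM14B (0.088) and SNRPN (0.00315) under DMSO, and the SNRPD3 difference was 0.091. With a day 0 minimum of 100, LSM1 (0.10), SF3B6 (−0.048) and U2AF2 (0.013) turned under RUX, and LSM1 (0.027), SF3B6 (−0.036) and U2AF2 (0.030) under DMSO. Without the farthest guide, LSM11 (0.045), LSM3 (0.12), SF3B6 (−0.048), SNRPN (0.034), U2AF1 (−0.098) and U2AF1L4 (−0.17) turned under RUX, and LSM11 (0.062) and SF3B6 (−0.036) under DMSO. With neighbouring genes subtracted, LSM14B (0.055) and SNRPN (0.027) turned under RUX, and LSM14B (0.024) and SNRPN (0.089) under DMSO. With the median over guides LSM3 was at 0.025 under RUX and the SF3B5 difference at 0.19. LSM14B was at 0.036 under RUX with library totals and, with the values as deposited, at 0.049 under RUX and 0.022 under DMSO, where SNRPN was at 0.020. Leaving out 1 library gave −0.20 to 0.047 for LSM1 under RUX, −0.032 to 0.11 for U2AF1L4 under RUX and −0.24 to 0.044 for the SNRPD3 difference.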

Other observations

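Over the 45 genes, the length of the coding sequence and the score had a Spearman's rho of 0.29 under RUX and 0.37 under DMSO, with short genes lower. This is a description across genes, which share libraries and are not independent. SNRPD3, SF3B5 and PHF5A have coding sequences of 378, 258 and 330 bases, and SNRNP200, the longest member with 6408 bases, scored −0.20 under RUX and −0.22 under DMSO. Other genes went the other way. The long SF3B1 (3912 bases) scored −0.60 under RUX and −0.46 under DMSO, and SF3B3 (3651 bases) −0.65 in both. The short SF3B6 (375 bases) scored 0.08 under RUX and 0.11 under DMSO. The share of sites with a copy elsewhere had a rho of 0.11 under RUX and 0.06 under DMSO.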
